A study of Mus musculus with 12 samples.

Results

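Syt7, Syt10, Chgb, Sstr4 and Crhr2 are 5 genes of regulated secretion and neuropeptide reception, taken as a named list from the 15928 genes of an RNA-seq count table. The table comes from brain sections of 12 mice, 1 library per mouse: 5 wild-type (Wt) mice, 3 labelled female and 2 labelled male, and 7 Tg2576 (Tg) mice, 4 female and 3 male. All were about 11 months old by the labels, and the methods give a range that starts there. In Tg2576 mice the hamster prion protein promoter drives a human APP cDNA with the Swedish double mutation, and both genotypes were bought from Taconic. Each section mixed dorsal hippocampus and cortex. Between 15768135 and 20996174 reads per library were counted on these genes, with medians of 17954111 in Wt and 18714500 in Tg mice. The libraries came in 2 batches. Of the Wt mice 3 were in batch 1, and of the Tg mice 5. The Wt mice of batch 1 were 1 labelled female and 2 labelled male, and its Tg mice 4 female and 1 male. Sex and genotype thus overlap in part within batch 1. In batch 2 both Wt mice were labelled female and both Tg mice male, so that there genotype cannot be told from sex.

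The rows of the count table carry no gene names. A row was named where its mean size-factor-normalized count matched a single mean in the table of test results published with the study (relative difference under 1e-09), which named 1349 rows, all 5 genes of the list among them. The genes that can be named are therefore ones that the study had ranked on these same mice. Their directions and p-values, under any test used here, are not independent of that ranking.

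Neurons and endocrine cells store neuropeptides in dense core vesicles, where granins help to pack the cargo and prohormone convertases cut precursors into active peptides. Calcium that enters during electrical activity is sensed by synaptotagmins, which drive the fusion of vesicles with the plasma membrane. The released peptides act on G protein-coupled receptors of nearby cells: in the hippocampus and cortex, somatostatin and cortistatin act on receptors such as Sstr4 that inhibit adenylyl cyclase, while urocortins act on Crhr2, which stimulates it.

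The genotype labels were checked on App, the gene for the amyloid precursor protein. Its level was 1365 ± 100.5 CPM (CPM, TMM-normalized counts scaled to library size, mean ± SD, n = 5) in Wt mice and 4392 ± 1160 CPM (SD, n = 7) in Tg mice. All 7 Tg mice lay above all Wt mice, and the log2 fold change was 1.67 (edgeR adjusted p = 7.55e-04). The counting is not stated to separate the human transgene from the mouse gene.

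Xist, the RNA of the inactive X chromosome, was read as a check of the sex labels. The 7 mice labelled female had 149.5 to 233.4 CPM, and 4 of the 5 mice labelled male had at most 0.0563 CPM. The library labelled male of Wt mouse 41 had 199 CPM, as the females did. Its sex label is in doubt, so the comparisons of genotype, sex and batch on the 5 genes are also given without it.

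Libraries also stood apart in their whole profile and in marker genes. On the first principal component of log2 CPM over all rows (26.3% of the variance), Wt mouse 80 stood at 56.2 and the next highest library at 23.1. On the second (21.1%), Wt mice 41 and 95 stood highest, at 39.0 and 26.3. The same 2 mice had the lowest summed levels of 8 markers of septum, thalamus and striatum, 41.7 CPM in mouse 41 and 35.5 CPM in mouse 95, where the other libraries had 62.4 to 269 CPM. Mice 41 and 95 had the highest summed levels of 4 neuron markers, 5228 and 4570 CPM, against 2843 to 4129 CPM elsewhere. Mice 41 and 95 are 2 of the 5 Wt mice, so the comparisons of genotype were repeated without each and without both. For the 5 genes they were also repeated without mouse 80.

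**Figure D1:**
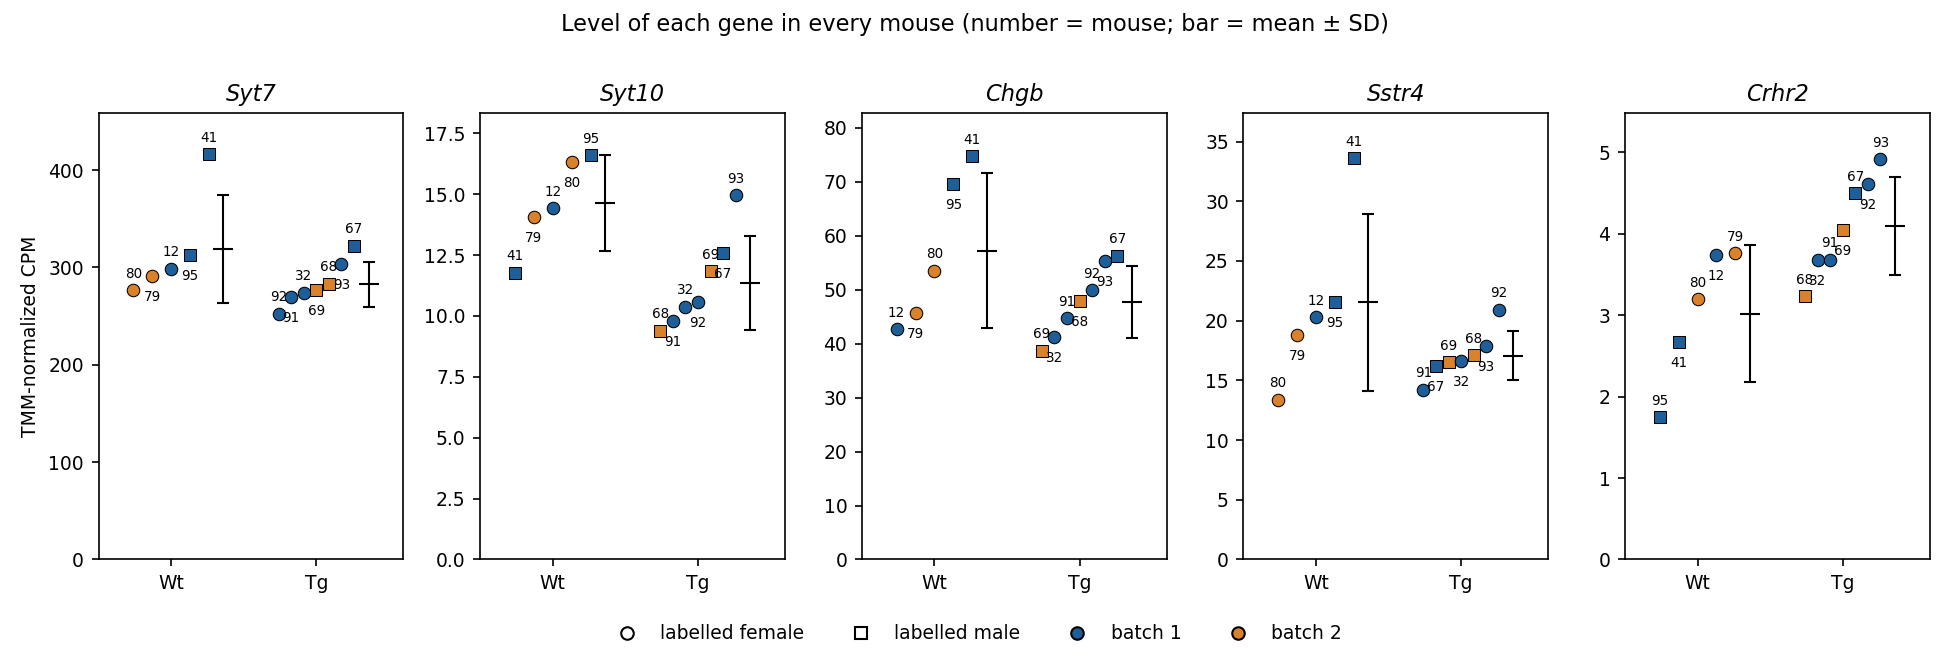
TMM-normalized CPM of the 5 genes in each of the 12 mice, numbered by mouse, with circles for libraries labelled female, squares for male, colours for library batch, and bars for the mean ± SD of each group. Mouse 41 is the highest library for Syt7 (416 CPM), Chgb (74.8 CPM) and Sstr4 (33.6 CPM), and the groups overlap for every gene.

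Tg and Wt mice were compared to ask how these genes differ with the transgene, with sex and batch as covariates in edgeR's quasi-likelihood F-test and Benjamini-Hochberg adjustment over all 15928 genes. Genes count as called where the adjusted p was under 0.1. Syt7, Syt10, Chgb and Sstr4 had lower mean levels in Tg mice and Crhr2 a higher one. None of the 5 was called (0 of 5, adjusted p from 0.637 to 0.689), where App alone was called among all genes tested (0.00628%). DESeq2 called 56 genes (0.352%) and again 0 of the 5, with adjusted p from 0.477 to 0.575. At an unadjusted p under 0.05 in edgeR, 5 of 5 passed, against 1146 of all genes tested (7.19%) and 1097 of the 1349 nameable genes (81.3%). The latter share is the one to read the 5 against, and it shows that most genes that could be named had such a p. For 0 of the 5 genes were the groups free of overlap in CPM, against 0.333% of all genes.

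Syt7 encodes a synaptotagmin with high affinity for calcium that serves slow, asynchronous release, synaptic facilitation and dense core vesicle fusion (chr19:10389090-10453180, plus strand, GRCm38, the assembly also called mm10). Its level in Wt mice was 299 CPM in mouse 12, 416 in mouse 41, 291 in mouse 79, 277 in mouse 80 and 313 in mouse 95. In Tg mice the lowest was 252, the median 277 and the highest 322 CPM. Mouse 41 stood far above all other mice, and the remaining 4 Wt mice lay inside the Tg range, the lowest of them next to its median. The means were 319 ± 55.9 (SD, n = 5) and 283 ± 23.1 CPM (SD, n = 7), and 4 of 7 Tg mice lay below the lowest Wt mouse. The log2 fold change was -0.19 (standard error 0.087, 95% confidence interval -0.38 to -0.0035, edgeR adjusted p = 0.689). An exact permutation test of log2 CPM over all splits of 5 against 7 mice, two-sided, without covariates and with a smallest possible p of 0.00126, gave p = 0.121. Permutation p-values are given without adjustment for the genes tested, and without a share over the nameable genes to read them against. Without mouse 41 the log2 fold change was -0.11, without mouse 95 it was -0.26, and without both -0.17 (standard error 0.126). An annotated gene, Gm26859, overlaps Syt7 on the opposite strand, and the counting is not stated to keep strands apart.

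Syt10 encodes a synaptotagmin known as the calcium sensor of growth factor secretion in olfactory bulb neurons (chr15:89782393-89841860, minus strand). Wt mouse 12 had 14.4 CPM, mouse 41 had 11.8, mouse 79 had 14.1, mouse 80 had 16.3 and mouse 95 had 16.6. In Tg mice the lowest was 9.39, the median 10.6 and the highest 15.0 CPM. Here mouse 41 was the lowest Wt mouse, and 6 of 7 Tg mice lay below the Wt median. Means were 14.6 ± 1.95 (SD, n = 5) and 11.4 ± 1.94 CPM (SD, n = 7), a log2 fold change of -0.37 (standard error 0.14, 95% confidence interval -0.67 to -0.062, edgeR adjusted p = 0.637). The exact permutation test gave a two-sided p of 0.024, without adjustment for the genes tested. Without mouse 41 the log2 fold change was -0.48, without mouse 95 -0.28 and without both -0.45 (standard error 0.227, 95% confidence interval -0.95 to 0.049). The sign was thus kept, with an interval that held 0. Within batch 1 it was -0.26. The exact permutation test within batch 1, 3 against 5 mice with a smallest possible p of 0.0179, gave 0.196.

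Syt17, the remaining synaptotagmin that could be named of 20 genes in the family list, encodes a synaptotagmin-like protein with paired C2 domains. It was at 70.7 ± 7.04 CPM in Wt (SD, n = 5) and 50.9 ± 13.5 CPM in Tg mice (SD, n = 7), and 5 of 7 Tg mice lay below all Wt mice. Its log2 fold change was -0.50 (edgeR adjusted p = 0.611). All 3 named synaptotagmins were thus lower in Tg mice, with a median log2 fold change of -0.37, and 0 were called. The median over all genes tested was -0.0030 and over the nameable genes 0.32. The other 17 genes of that list had no name here.

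Chgb encodes chromogranin B, a granin of the dense core vesicle (chr2:132781278-132795079, plus strand). The level was 42.6 CPM in Wt mouse 12, 74.8 in mouse 41, 45.7 in mouse 79, 53.6 in mouse 80 and 69.7 in mouse 95. Tg mice ranged from 38.7 to 56.3 CPM with a median of 47.9. Mice 41 and 95 stood above every other library, and the other 3 Wt mice lay inside the Tg range. Means were 57.3 ± 14.3 (SD, n = 5) and 47.7 ± 6.69 CPM (SD, n = 7). The log2 fold change was -0.28 (standard error 0.12, 95% confidence interval -0.54 to -0.027, edgeR adjusted p = 0.665), and the exact permutation test gave a two-sided p of 0.174. Without mouse 41 the log2 fold change was -0.24 and without mouse 95 -0.27, and without both it was -0.056 (standard error 0.20). Within batch 1, which holds both mice, it was -0.076 with sex as the covariate. Mice 41 and 95 are the Wt mice labelled male in that batch, so this value depends on the doubtful sex label of mouse 41. The fit within batch 1 was not repeated without mouse 41.

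Of 7 granins, 5 could be named, and they did not share a direction: Chgb, Scg3 and Vgf were lower in Tg mice and Scg2 and Scg5 higher, none past edgeR's threshold. Scg5 encodes 7B2, the chaperone of prohormone convertase 2, and was at 128 ± 37.6 CPM in Wt (SD, n = 5) and 184 ± 34.8 CPM in Tg mice (SD, n = 7). Its log2 fold change was 0.49 (edgeR adjusted p = 0.597), and DESeq2 placed it past the threshold (adjusted p = 0.0898). Vgf, the precursor of several neuronal peptides, had a log2 fold change of -0.32 (edgeR adjusted p = 0.611). Its highest level, 324 CPM, was in mouse 41, and without that mouse the log2 fold change was -0.21. Scg3, which ties granins to the vesicle membrane, had -0.21 (edgeR adjusted p = 0.689). Scg2, the precursor of secretoneurin, had 0.27 (edgeR adjusted p = 0.665), with all 7 Tg mice inside the Wt range of 85.8 to 190.3 CPM. Without mice 41 and 95 the log2 fold change was -0.19 for Vgf, -0.12 for Scg3, 0.18 for Scg2 and 0.41 for Scg5.

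The start regions of these genes were searched for the cyclic AMP response element TGACGTCA, a palindrome that reads the same on both strands and is bound by CREB family factors, because granin and peptide genes are known for it. In RefSeq's windows of GRCm38.p6, from 250 bases before to 50 after the start, 5 of 28 genes of the synaptotagmin, granin, somatostatin and CRH lists held it, against 2.03% of all 27025 genes with a window. Of genes with a window, 0 of 12 synaptotagmins and 2 of 6 granins held it. So did 2 of 5 genes of the somatostatin list and 1 of 5 of the CRH and urocortin list. Windows were found for 4 of the 5 genes of interest, and of these Chgb held the element, 72 bases before its start. It also lay in the windows of Scg2, the ligand gene Sst, the receptor gene Sstr2 and the ligand gene Ucn. Each is shown 5′ to 3′ on the gene's own strand with 11 bases on either side and the element in capitals. The Chgb, Scg2 and Sst stretches lie in an annotated first exon in GENCODE M21, whose starts differ from those of RefSeq.
Chgb, chr2:132781559-132781588, plus strand: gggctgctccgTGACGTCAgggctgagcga
Scg2, chr1:79440076-79440105, minus strand: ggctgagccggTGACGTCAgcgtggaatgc
Sst, chr16:23890874-23890903, minus strand: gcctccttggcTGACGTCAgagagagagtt
Sstr2, chr11:113619258-113619287, plus strand: ccaagctgccgTGACGTCAcgggcgggggc
Ucn, chr5:31138921-31138950, minus strand: atgttcttcgcTGACGTCAgtcggagctgt
Chgb and Scg2 carry the same element and had opposite signs in the comparison of genotypes. Sst, Sstr2 and Ucn had no name in the count table. A match describes letters only.

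Sstr4 encodes somatostatin receptor 4, a receptor for somatostatin and cortistatin on hippocampal and cortical neurons (chr2:148395344-148396767, plus strand). Wt mouse 12 had 20.3 CPM, mouse 41 had 33.6, mouse 79 had 18.8, mouse 80 had 13.4 and mouse 95 had 21.6. The Tg mice had a lowest level of 14.2, a median of 16.6 and a highest of 20.9 CPM. The Tg mice were close together, and all 7 lay between the lowest and the highest Wt mouse. Means were 21.5 ± 7.43 (SD, n = 5) and 17.1 ± 2.03 CPM (SD, n = 7). The log2 fold change was -0.34 (standard error 0.15, 95% confidence interval -0.66 to -0.020, edgeR adjusted p = 0.684). The two-sided exact permutation test gave p = 0.177 over all mice and 0.0357 within batch 1, each without adjustment for the genes tested. Without mouse 41 the log2 fold change was -0.18 and without mouse 95 -0.42. With both left out it was -0.11 (standard error 0.21). Within batch 1, which holds mice 41 and 95, it was -0.47 with sex as the covariate (edgeR unadjusted p = 0.0563). The exact permutation test within batch 1, which takes no account of sex, gave 0.107 for Syt7 and 0.214 for Chgb.

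Cort, the gene of cortistatin (chr4:149125034-149126763, minus strand), was the other of 7 somatostatin system genes that could be named. It had 22 to 60 reads per library. Its level was 2.53 ± 0.719 CPM in Wt (SD, n = 5) and 1.79 ± 0.438 CPM in Tg mice (SD, n = 7), and all 7 Tg mice lay below the Wt median of 2.68 CPM. The log2 fold change of the ligand gene was -0.54 (95% confidence interval -1.01 to -0.075, edgeR adjusted p = 0.642), and without mice 41 and 95 it was -0.82. Ligand and receptor thus had the same sign, and neither was called.

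Crhr2 encodes the type 2 receptor of corticotropin-releasing hormone, whose preferred ligands are urocortins and which is known from the lateral septum and the choroid plexus (chr6:55090049-55133016, minus strand). It was the 1 gene of the 5 with a higher mean in Tg mice, and it rested on the fewest reads, 31 to 88 per library. Its level in Wt mice was 3.73 CPM in mouse 12, 2.66 in mouse 41, 3.76 in mouse 79, 3.19 in mouse 80 and 1.74 in mouse 95. In Tg mice the lowest was 3.23, the median 4.04 and the highest 4.91 CPM. All 7 Tg mice lay above the Wt median and 4 above every Wt mouse, while mice 95 and 41 were the lowest libraries of all. Means were 3.02 ± 0.842 (SD, n = 5) and 4.09 ± 0.605 CPM (SD, n = 7), a log2 fold change of 0.49 (standard error 0.20, 95% confidence interval 0.057 to 0.91, edgeR adjusted p = 0.665). The two-sided exact permutation test gave p = 0.0253 over all mice and 0.0536 within batch 1, each without adjustment for the genes tested. Without mouse 41 the log2 fold change was 0.52 and without mouse 95 0.32, and without both it was 0.097 (standard error 0.28).

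Ucn3, the gene of urocortin 3, the peptide selective for Crhr2 (chr13:3940688-3945349, minus strand), was the other of 7 genes of the CRH and urocortin list that could be named. It had 0 reads in mouse 95 and at most 71 in any library. Wt mice had 1.06 ± 0.729 CPM (SD, n = 5) and Tg mice 2.01 ± 0.703 CPM (SD, n = 7). The log2 fold change was 1.07 (95% confidence interval 0.036 to 2.11, edgeR adjusted p = 0.689). It was 1.91 without mouse 41, 0.66 without mouse 95 and 1.03 without both.

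**Figure D2:**
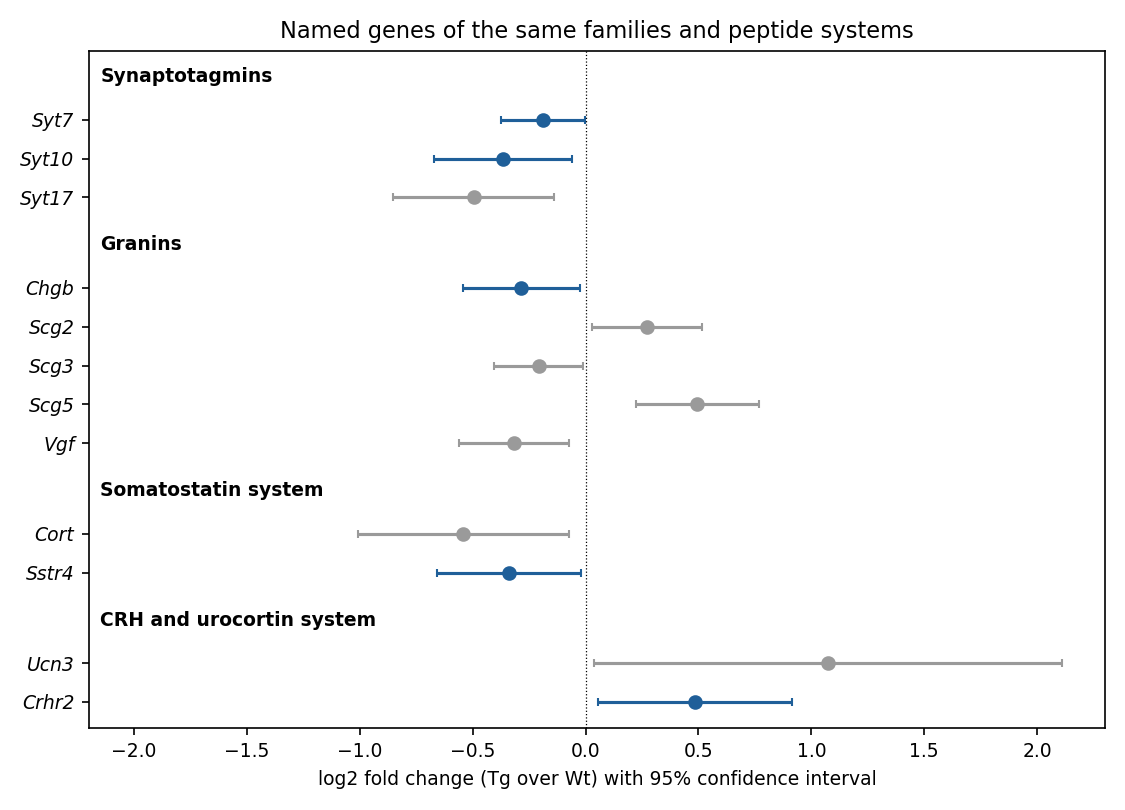
Log2 fold change of Tg over Wt mice with its 95% confidence interval from edgeR, for the 5 genes (blue) and the other nameable genes of the same families and peptide systems (grey). The 3 synaptotagmins and both somatostatin system genes lie below 0, the 2 CRH system genes above it, and the 5 granins on either side.

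The bases in front of the receptor genes and Syt10 differ in their CG pairs. Of all RefSeq start windows, with a median of 7 CG pairs in 300 bases, those of Syt10 and Sstr4 held 35 each and that of Chgb 31, while that of Crhr2 held 5. The 80 bases before the GENCODE start are shown for the genes in which they hold no annotated exon, to set the 2 receptor genes with opposite signs beside each other, with each CG pair in capitals (GRCm38.p6, 5′ to 3′ on the gene's strand).
Sstr4, chr2:148395264-148395343, plus strand: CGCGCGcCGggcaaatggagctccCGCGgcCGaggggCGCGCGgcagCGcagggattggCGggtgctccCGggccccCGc
Syt10, chr15:89841861-89841940, minus strand: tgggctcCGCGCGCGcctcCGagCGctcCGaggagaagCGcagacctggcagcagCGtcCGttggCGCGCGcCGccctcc
Crhr2, chr6:55133017-55133096, minus strand: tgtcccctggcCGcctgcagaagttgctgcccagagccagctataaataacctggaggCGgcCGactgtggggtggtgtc
These stretches hold 14, 14 and 3 CG pairs. Methylation was not analysed here.

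**Figure D3:**
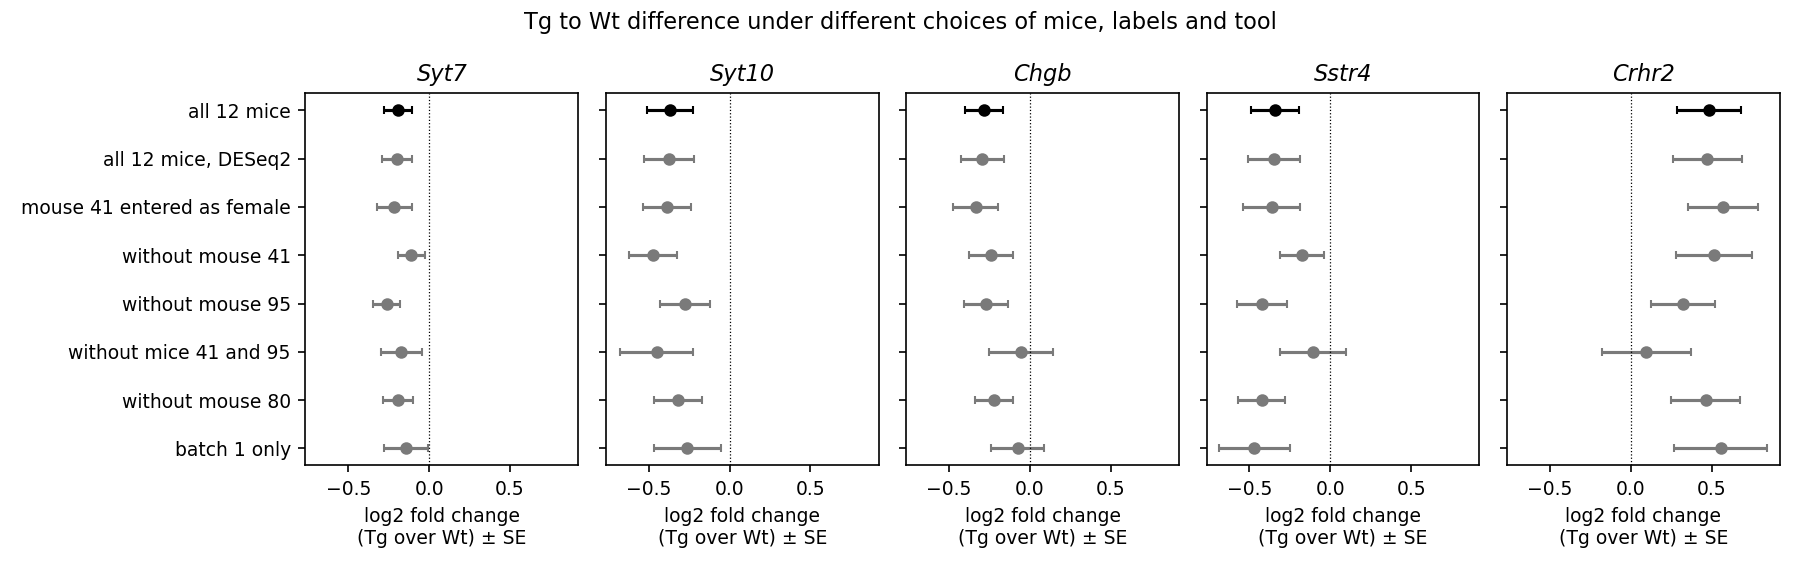
Log2 fold change of Tg over Wt mice, with its standard error, for each gene with all 12 mice, with DESeq2, with mouse 41 entered as female, without mouse 41, 95, both or 80, and within batch 1. No choice changed a sign, and without mice 41 and 95 the values of Chgb (-0.056), Sstr4 (-0.11) and Crhr2 (0.097) lay within 1 standard error of 0.

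The count of the 5 genes with an unadjusted edgeR p under 0.05 depended on covariates and on single libraries. It was 2 with no covariates, 1 with batch alone and 2 with sex alone. The share of all genes with such a p moved as well. It was 5.99%, 5.95% and 6.63% in these fits, against 7.19% in the main fit. Leaving out libraries gave 2 without mouse 41, 2 without mouse 95, 2 without mouse 80, 1 without Tg mouse 69 and 0 without both mice 41 and 95, a choice made after seeing the data that left 3 Wt females. In the same order, the share of all genes was 4.73%, 9.64%, 7.26%, 5.42% and 3.70%. Leaving out mouse 67 or 91 gave 2 (6.55% and 4.96% of all genes), and mouse 32, 68 or 79 gave 3 (6.59%, 5.06% and 6.67%). Mouse 12, 92 or 93 left out gave 4 (9.96%, 7.35% and 9.40%). The count was 5 with DESeq2, with limma-voom and with size factors by median of ratios (7.70%, 7.08% and 7.23% of all genes). Within batch 1 the count was 0, where 3.06% of all genes passed. Entering mouse 41 as female gave 3, with 6.42% of all genes.

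Sex and library batch were examined next, since both vary among these mice. Between libraries labelled female and male, edgeR called 0 of the 5 genes and 0 of all genes (0%), while 1801 genes had an unadjusted p under 0.05 (11.3%) and DESeq2 called 175. With mouse 41 as male, Xist itself had an adjusted p of 0.325 in edgeR and 0.00423 in DESeq2. Syt7, Chgb and Sstr4 had log2 fold changes of -0.21, -0.27 and -0.28 in females (edgeR adjusted p = 0.411, 0.427 and 0.484), and Crhr2 and Syt10 0.34 and 0.041 (edgeR adjusted p = 0.512 and 0.921). Leaving out mouse 41 gave -0.13 for Syt7, -0.22 for Chgb, -0.11 for Sstr4, 0.38 for Crhr2 and -0.060 for Syt10. With it entered as female they were -0.11, -0.20, -0.070, 0.38 and -0.074, and edgeR called Xist alone. The differences of Syt7 and Sstr4 between the sexes were thus smaller once mouse 41 did not stand as male. That of Crhr2 was 0.18 without mouse 95. Without mouse 95, edgeR called 540 genes between the sexes, Xist among them (adjusted p = 0.0682) and none of the 5. The doubtful mouse 41 is then the only Wt library labelled male, so that count is not read as a difference between the sexes.

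Between batches, edgeR called 0 of the 5 genes and 0 of all genes (0%), with 1217 at an unadjusted p under 0.05 (7.64%) and 24 called by DESeq2. Chgb had a log2 fold change of -0.28 in batch 2 against batch 1 and Sstr4 -0.34 (edgeR adjusted p = 0.636 for each), while Syt7, Syt10 and Crhr2 had -0.16, -0.025 and 0.090. Without mouse 41 the values were -0.23 for Chgb, -0.20 for Sstr4, -0.089 for Syt7, -0.10 for Syt10 and 0.12 for Crhr2. Other libraries mattered as much: Chgb was at -0.17 without Tg mouse 69 and Sstr4 at -0.22 without mouse 80. Both mice with the highest Chgb were in batch 1.

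The interaction of genotype and sex asks whether the difference between Tg and Wt mice differs between females and males. EdgeR called 0 of the 5 and 0 of all genes (0%), with 567 at an unadjusted p under 0.05 (3.56%) and 17 called by DESeq2. The interaction terms of the 5 genes had wide intervals, such as -1.96 to 0.25 for Crhr2 on the log2 scale (edgeR adjusted p = 0.992), and with 2 libraries labelled male in the Wt group, 1 of them in doubt, the sexes are not separated well enough to give a direction. The terms were 0.055 for Syt7, -0.17 for Syt10, 0.50 for Chgb, 0.53 for Sstr4 and -0.86 for Crhr2. Without mouse 41 they were -0.16, 0.066, 0.45, 0.18 and -1.19. With mouse 41 entered as female, those of Syt7, Syt10 and Sstr4 changed sign and that of Chgb was 0.037.

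The levels of cell type and region markers differed between the libraries in ways that overlap with genotype. All 15 choroid plexus markers could be named and were higher in Tg mice, with a median log2 fold change of 2.18. EdgeR called 0 of them and DESeq2 1. Their summed level was 597 CPM in Wt mouse 12, 105 in mouse 41, 351 in mouse 79, 208 in mouse 80 and 141 in mouse 95, and in Tg mice 100.2 at the lowest, 1837 at the median and 2365 at the highest. The Tg mice were split: mice 67 and 93 were as low as mouse 41, and the other 5 lay above every Wt mouse. The most abundant was Ttr, and 0 of the 15 were at 0 in all libraries.

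All 11 named of 12 oligodendrocyte markers, of which Mbp was the most abundant, were higher in Tg mice, with a median log2 fold change of 0.97. Their sums were 3714, 1118, 2057, 1646 and 1511 CPM in Wt mice 12, 41, 79, 80 and 95, and 1530 to 6214 CPM in Tg mice with a median of 3733. All 8 named of 20 markers of septum, thalamus and striatum, led by Slc17a6, were higher, with a median log2 fold change of 1.001 that was 0.26 without mice 41 and 95. Without these 2 mice, 6 of the markers were higher and 2 lower. Their sums were 113, 41.7, 69.5, 95.5 and 35.5 CPM in the Wt mice in the same order and 62.4 to 269 CPM in Tg mice with a median of 84.5. None of these genes was at 0 in all libraries. The summed levels of these marker lists thus varied between libraries, and the tissue that this RNA came from was not tested.

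Of the other marker lists, 2 of 4 named neuron markers, led by Camk2a, 2 of 5 astrocyte markers, led by Slc1a2, and 1 of 2 hippocampal formation markers were lower in Tg mice, Prox1 being the more abundant of the last pair. All 3 named microglia markers, led by C1qb, and all 5 meningeal markers, led by Igf2, were higher. The neuron marker sums were 3587, 5228, 4129, 3336 and 4570 CPM in the Wt mice in the order above and 2843 to 4034 CPM in Tg mice with a median of 3483. The astrocyte sums were 2740 to 3537 CPM in Wt and 2492 to 3122 CPM in Tg mice, the microglia sums 55.9 to 71.2 and 69.4 to 90.4 CPM, the meningeal sums 15.3 to 67.7 and 25.7 to 68.02 CPM, and the hippocampal sums 16.2 to 22.1 and 15.7 to 28.9 CPM. None of the genes in these 8 lists passed edgeR's threshold, while DESeq2 called 1 choroid plexus, 1 oligodendrocyte and 2 astrocyte markers. The 2 astrocyte markers were Agt and Gfap, which the study lists as upregulated in Tg mice. Of the 5 astrocyte markers 3 were higher, with a median log2 fold change of 0.31. Slc1a2, at -0.32 and not called, had 1609 to 2666 CPM and so held most of the astrocyte sum.

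Set beside the 5 genes as descriptions over 12 mice, the marker sum with the largest Pearson's r in size was the neuron sum for Syt7 (0.82) and Sstr4 (0.79), the choroid plexus sum for Syt10 (-0.73), the oligodendrocyte sum for Chgb (-0.81) and the microglia sum for Crhr2 (0.74). In the same order of genes, these were 0.69, 0.60, -0.82, -0.74 and 0.71 without mouse 41, and 0.61, 0.46, -0.80, -0.69 and 0.31 without mice 41 and 95 (n = 10). The value of Syt10 thus kept its size without the 2 mice, and that of Crhr2 did not. Which sum came first also depended on mouse 41: without it the hippocampal sum led for Syt7 (-0.80), the oligodendrocyte sum for Syt10 (-0.87), the meningeal sum for Chgb (-0.74) and the septum, thalamus and striatum sum for Sstr4 (-0.61), and only Crhr2 kept its first sum. Syt7 and Chgb also ran against the choroid plexus sum (r = -0.70 and -0.75). Crhr2, known from choroid plexus and septum, had an r of 0.24 with the choroid plexus sum and 0.39 with the septum, thalamus and striatum sum, which were 0.14 and 0.30 without mouse 41 and -0.35 and -0.54 without mice 41 and 95. The points share library preparation, and genotype moves with several sums. In whole sections, fewer cells of a type and less RNA per cell cannot be told apart, and the part of these marker levels in the differences of the 5 genes was not tested.

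**Figure D4:**
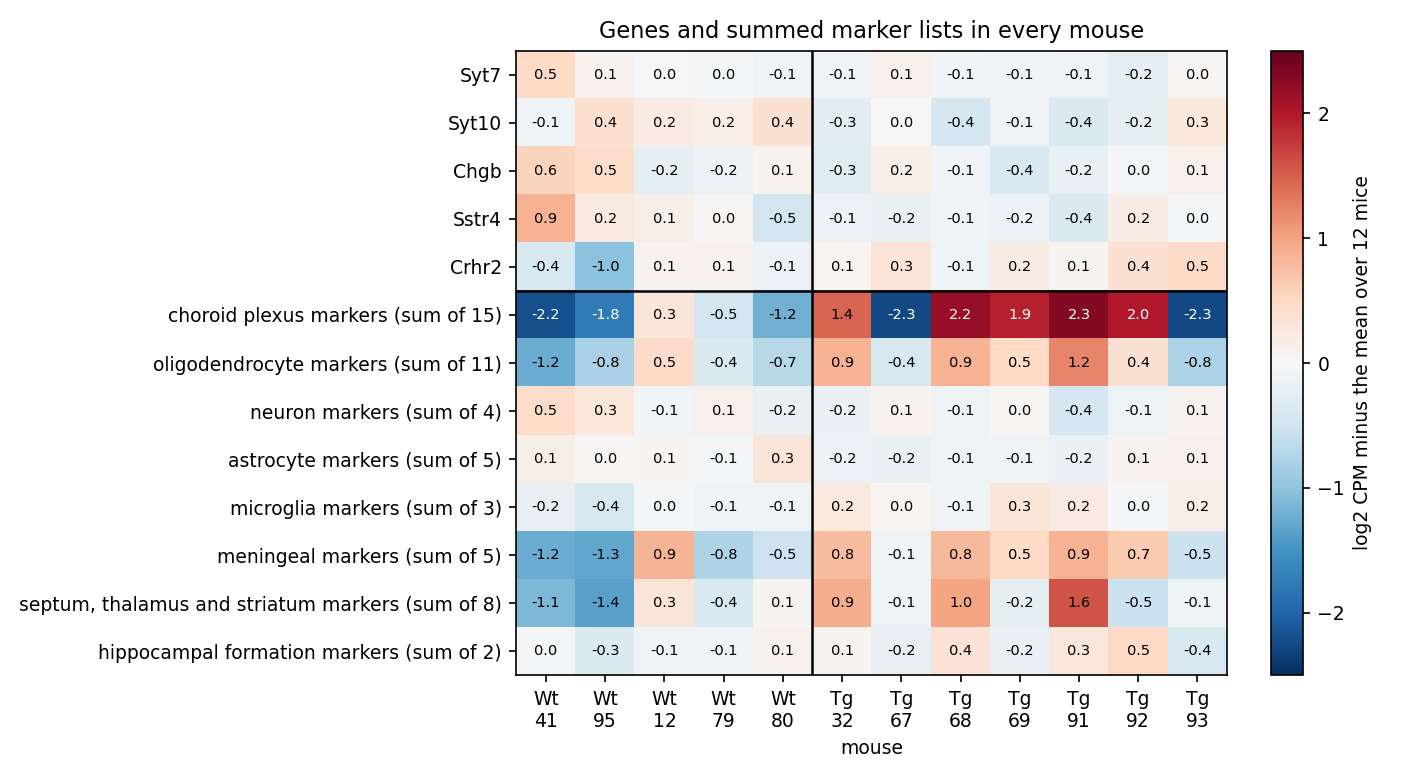
Log2 CPM of the 5 genes, and of the summed named markers of 8 cell types or regions, minus each row's mean over the 12 mice (colour and number), with Wt mice on the left. Mice 41 and 95 are low for septum, thalamus and striatum markers (41.7 and 35.5 CPM) and for Crhr2, and high for Chgb.

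The 5 genes were also compared among themselves. Pearson's r of log2 CPM was 0.74 between Syt7 and Chgb and 0.74 between Syt7 and Sstr4, and without mouse 41 these were 0.53 and 0.20. Chgb and Sstr4 had an r of 0.60, and 0.24 without that mouse. Without mice 41 and 95 these 3 pairs had r of 0.37, 0.016 and -0.14. Syt10 had r of 0.22 with Syt7, 0.37 with Chgb and 0.041 with Sstr4, which were higher without mouse 41, at 0.57, 0.54 and 0.19, and 0.48, 0.36 and -0.019 without mice 41 and 95. Mouse 41, the highest library for Syt7, Chgb and Sstr4 and the lowest Wt mouse for Syt10, thus shaped these pairs. Crhr2 ran against the other 4, from -0.56 with Chgb to -0.29 with Syt10, from -0.49 to -0.20 without mouse 41, with positive values for all 4 pairs once mice 41 and 95 were left out.

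The nameable genes with the most similar levels over the 12 libraries were then taken for each gene, by Pearson's r of log2 CPM and with no test. For Syt7 these were N28178 (r = 0.976), Pcdh7 (0.974) and Irgq (0.956), which kept at least 0.909 with any 1 mouse left out. Chgb was followed by Grin2b (0.926), Cacna1e (0.908) and Kcnj3 (0.897), and Sstr4 by Extl1 (0.945), Pcdh1 (0.922) and Mast3 (0.918). For Syt10 the highest were Ppapdc2 (0.877), Gm28050 (0.864) and Slc7a14 (0.843). Crhr2 was matched by Gpx3 (0.898), Zic2 (0.878) and Arhgef16 (0.838), and those values were 0.607, 0.514 and 0.357 without mice 41 and 95. Zic2 is itself in the list of septum, thalamus and striatum markers. Without these 2 mice the values were 0.932, 0.916 and 0.890 for Syt7, 0.889, 0.845 and 0.799 for Syt10, 0.784, 0.736 and 0.644 for Chgb, and 0.827, 0.746 and 0.716 for Sstr4. The genes were picked for the highest r in these libraries, so high values were in part given by that choice.

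The rest of the secretory pathway was read from lists of which few genes could be named, and neither edgeR nor DESeq2 called any. Of 11 prohormone processing enzymes 4 were named, 2 higher and 2 lower, with Pcsk6 at a log2 fold change of 0.35, Pcsk5 at -0.30 and Cpm at 0.73 (edgeR adjusted p = 0.611, 0.635 and 0.689). Of 26 genes for vesicle docking, priming and fusion 7 were named, 2 higher and 5 lower, with a median of -0.24. Without mice 41 and 95 the median was -0.12, with 1 higher and 6 lower. Bsn and Pclo, the large scaffolds of the active zone, had log2 fold changes of -0.36 and -0.30 (edgeR adjusted p = 0.611 and 0.665), and -0.43 and -0.32 without mice 41 and 95. With mouse 41 alone left out they were -0.21 and -0.19, and with mouse 95 alone left out -0.51 and -0.40. Baiap3, the gene of a Munc13-related protein of dense core vesicles, had 0.45 (edgeR adjusted p = 0.697), which was -0.0089 without mice 41 and 95.

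Among other neuropeptide precursors 3 of 28 were named, and all 3 were higher in Tg mice: Calca (log2 fold change 0.92, edgeR adjusted p = 0.632), Pnoc (0.43, 0.642) and Nts (0.51, 0.672). Calca rested on 11 to 62 reads per library. Without mice 41 and 95 Calca was at 0.96, Pnoc at 0.40 and Nts at 0.16. Of 41 other peptide receptors 4 were named, 3 of them higher, with Ntsr2 at 0.31, Vipr1 at -0.34 and Tacr1 at 0.57 (edgeR adjusted p = 0.616, 0.665 and 0.689). Vipr1 was at -0.20 without mouse 41 and -0.46 without mouse 95. Without mice 41 and 95 Vipr1 was at -0.32, Ntsr2 at 0.052 and Tacr1 at -0.25, and 2 of the 4 receptors were higher.

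Activity-regulated genes, which neurons switch on after firing, had 9 of 19 named. All 9 were lower in Tg mice, against 595 of the 1349 nameable genes, and the shared direction was not tested. Of the 9, edgeR and DESeq2 called 0. An unadjusted edgeR p under 0.05 was found for 6 of the 9, against 1097 of the 1349 nameable genes (81.3%). The median log2 fold change of these 9 genes was -0.38. The 3 with the smallest unadjusted values were Dusp4 (-0.56, edgeR adjusted p = 0.597), Egr4 (-0.74, 0.611) and Plk2 (-0.25, 0.611). Dusp4 was at -0.44 without mouse 41, -0.59 without mouse 95 and -0.21 without both, and Plk2 at -0.22, -0.28 and -0.24. Egr4 was highest in mouse 41, at 61.5 CPM against 11.5 to 21.01 CPM in Tg mice, and its log2 fold change was -0.28 without that mouse, -0.96 without mouse 95 and -0.47 without both. The median of the list was -0.21 without mouse 41 alone, with 9 of 9 genes lower, and -0.21 without mice 41 and 95, with 8 of 9 lower.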

How the data were processed

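Total RNA without ribosomal RNA was read on an Ion Torrent S5XL. The authors aligned to mm10 with STAR and Bowtie2 and deposited raw counts of unambiguous, unique reads for 15928 genes left after a filter on low counts. The members and gene lists were chosen with earlier results of these data known. Rows were named through the means, and no other value, of the study's table of 1684 genes. Sex was taken from the labels and library batch from the study's design matrix. The main test was edgeR 4.0.16 (TMM, filterByExpr, which removed 0 genes, quasi-likelihood F-test, ~ sex + batch + group), with DESeq2 1.42.0 and limma-voom (limma 3.58.1) as alternatives in R 4.3.3. The biological coefficient of variation was 0.201. Levels are TMM-normalized CPM, and correlations and exact permutation tests used log2 CPM with a prior count of 2. Fits, naming and permutation were tested on simulated data. Named beside the 5 genes were App, Xist, the 3 most similar genes of each, all named genes of their families and peptide systems, the 3 with the smallest p of every other pathway list, and the most abundant gene of each marker list. Alternatives changed the tool, the size factors, the filter, the covariates or the mice. Leaving out mice 41 and 95 together, entering mouse 41 as female, and all alternatives for genes other than the 5, App and Xist were added after seeing the data.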

Additional observations from a re-analysis of the deposited data

Results flagged for a closer look

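Syt7 in Wt mouse 41, at 416.2 CPM, lay far from the other 4 Wt mice, of which the next highest was mouse 95 at 312.7 CPM. The gap was 0.742 of the group's range, above the critical value for 5 mice. Of 10 combinations of gene and group examined, this was 1, and chance gives about 1 in 20. The same library carries the sex label in doubt, and the log2 fold change of Syt7 without it was -0.11. No interaction of genotype and sex passed the threshold for the 5 genes.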

How the results depend on the processing

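The signs of the 5 differences between Tg and Wt mice held in all 23 alternatives (22 for Crhr2, which the stricter filter removed), and 0 of the 5 were called in any. The alternative without a low-count filter repeats the main fit, because filterByExpr removed 0 genes. Within batch 1, and without mice 41 and 95, App was not called either. With 1 mouse left out at a time, the log2 fold change ranged from -0.26 to -0.11 for Syt7, from -0.48 to -0.28 for Syt10, from -0.39 to -0.21 for Chgb, from -0.42 to -0.18 for Sstr4 and from 0.32 to 0.56 for Crhr2. For App the range was 1.55 to 1.73.

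The number of genes past the threshold between Tg and Wt mice moved from 1 to 56 with DESeq2, to 0 in batch 1 only, and to 0 without mice 41 and 95. With 1 mouse left out it ranged from 1 to 2, the latter without Tg mouse 93. App had an edgeR adjusted p of 0.418 within batch 1 (log2 fold change 1.62) and its log2 fold change was 1.46 without mice 41 and 95. The cause was not tested.

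Signs reversed in the comparisons of sex and batch, in the interaction and in 3 of the related genes reported singly. Between females and males, Syt10 ranged from -0.060 to 0.13 with 1 mouse left out and was -0.074 with mouse 41 entered as female. Between batches, Syt10 ranged from -0.10 to 0.064 and Crhr2 from -0.035 to 0.18 with 1 mouse left out. The interaction of genotype and sex ranged from -0.16 to 0.25 for Syt7, from -0.48 to 0.17 for Syt10 and from -0.071 to 1.13 for Chgb. With mouse 41 entered as female it was -0.45 for Syt7, 0.29 for Syt10 and -0.42 for Sstr4. Without mice 41 and 95, the differences between Tg and Wt mice of Baiap3 (-0.0089), Tacr1 (-0.25) and Arhgef16 (-0.25) reversed. In the lists, 2 of the 8 septum, thalamus and striatum markers were then lower and 1 of the 9 activity-regulated genes higher. The cause was not tested. No paired analysis was possible because mouse numbers are unique to each group.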
